A study of Mus musculus with 12 samples.

Results

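Cells of EL-4, a T lymphoma line from the mouse, that had been stimulated while protein synthesis was blocked were compared, gene by gene, with untreated cells of the line. In the treated group the cells were pretreated for 30 min with cycloheximide (CHX) at 10 μg/ml and then stimulated for 4 h with 10 ng/ml of the phorbol ester PMA and 1 μM of the calcium ionophore ionomycin (P/I; the group is called CHX + P/I). In the other group the cells received only DMSO, the solvent of CHX, and were taken at 0 h of stimulation (DMSO, unstimulated). Each group had 3 biological replicates, and the 2 remaining groups of the design, DMSO + P/I and CHX, unstimulated, also with 3 arrays each, are given beside them. All probe sets of the Affymetrix Mouse Gene 1.0ST array that pair with exactly 1 gene symbol entered the comparison, 21789 of the 35399 in the table, and they stand for 19938 genes. The groups differ in CHX, in P/I and in the 4 h of culture at once, so that the part of each cannot be told apart from this contrast alone. The time in CHX of the CHX, unstimulated cells beyond the pretreatment is not given in the sources used here. EL-4 is a single transformed line, and nothing measured here refers to normal T cells.

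PMA activates protein kinase C and the Ras-MAP kinase pathway, and ionomycin lets calcium into the cell, so that together they stand in for a signal through the T cell receptor. Such a signal switches on immediate early genes, whose transcription needs only factors that the resting cell already holds. Many immediate early proteins are themselves transcription factors that act on later genes, and others are inhibitors that shut the pathway down or proteins that destroy short-lived mRNAs. CHX stops the ribosome in elongation, so that the mRNAs still appear but none of these proteins is newly made. In the presence of CHX immediate early mRNAs are classically superinduced, whereas mRNAs of later genes fail to appear.

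Expression is given as log2 robust multichip average (RMA) values, in which 1 unit is a 2-fold change. A difference is the mean of the CHX + P/I arrays minus the mean of the DMSO, unstimulated arrays, with its standard error (SE) from limma, and a gene was called where the p adjusted by Benjamini-Hochberg was under 0.1. The differences of DMSO + P/I and of CHX, unstimulated are taken from the same 3 untreated arrays and are therefore not independent of it. An interaction term tests whether the P/I difference under CHX departs from the P/I difference without CHX. Correlations between arrays within a group were 0.987 to 0.997, and the CHX + P/I arrays correlated at 0.962 to 0.975 with the untreated ones. The array medians lay between log2 5.74 and 5.92. Per the study's methods the arrays were normalized by quantiles before deposit, although their upper quartiles still ran from log2 8.02 to 8.34. In bulk RNA a lower content per cell and fewer cells cannot be told apart. The number of arrays, 3 per group, limits the precision.

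Of 11 measured T cell markers the median level was log2 10.2 in CHX + P/I cells and 10.03 in DMSO, unstimulated cells, against 5.19 and 5.08 for 9 B cell markers and 4.98 and 4.87 for 11 myeloid markers. The 8 erythroid and fibroblast markers had medians of 5.26 and 5.27. The T cell markers were therefore the highest of these lists, with the exception of Trat1, a T cell receptor adaptor, at log2 4.10 in CHX + P/I cells and 4.19 in DMSO, unstimulated cells. The kinase gene Zap70 rose (log2 difference 1.12), with 2 T cell markers higher in the blocked fit, and Cd28 (−0.56), Cd3g (−0.30) and Lat (−0.26) fell. Among the myeloid markers the Fc receptor gene Fcgr1 rose by 1.21, with 7.49, 5.95 and 6.22 in the CHX + P/I arrays and 5.17, 5.65 and 5.22 in the DMSO, unstimulated arrays, so that the first CHX + P/I array stood apart. Without it the Fcgr1 difference was 0.74 and still called. Elane (0.32) also rose and Cd68 (−0.51) fell.

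The joint treatment moved more genes far upward than far downward. Of all 23410 probe sets tested, which have 1 or more symbols, 2804 were higher (12%) and 2494 lower (10.7%) in CHX + P/I cells. Over the 19938 genes, 2440 were higher (12.2%) and 2039 lower (10.2%). By more than 2-fold, 679 genes were higher (3.41%) and 280 lower (1.4%), and by more than 4-fold 161 were higher and 17 lower. Above 16-fold lay 25 genes and above 32-fold 8 genes, all of them higher. The median difference was 0.70 among the genes called higher, −0.56 among those called lower and −0.03 over all genes. All 3 CHX + P/I arrays lay above the 3 untreated arrays for 2350 of the genes called higher, and below them for 1989 of those called lower. Over all genes, called or not, the arrays lay above for 3159 (15.8%) and below for 3378 (16.9%).

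**Figure D1:**
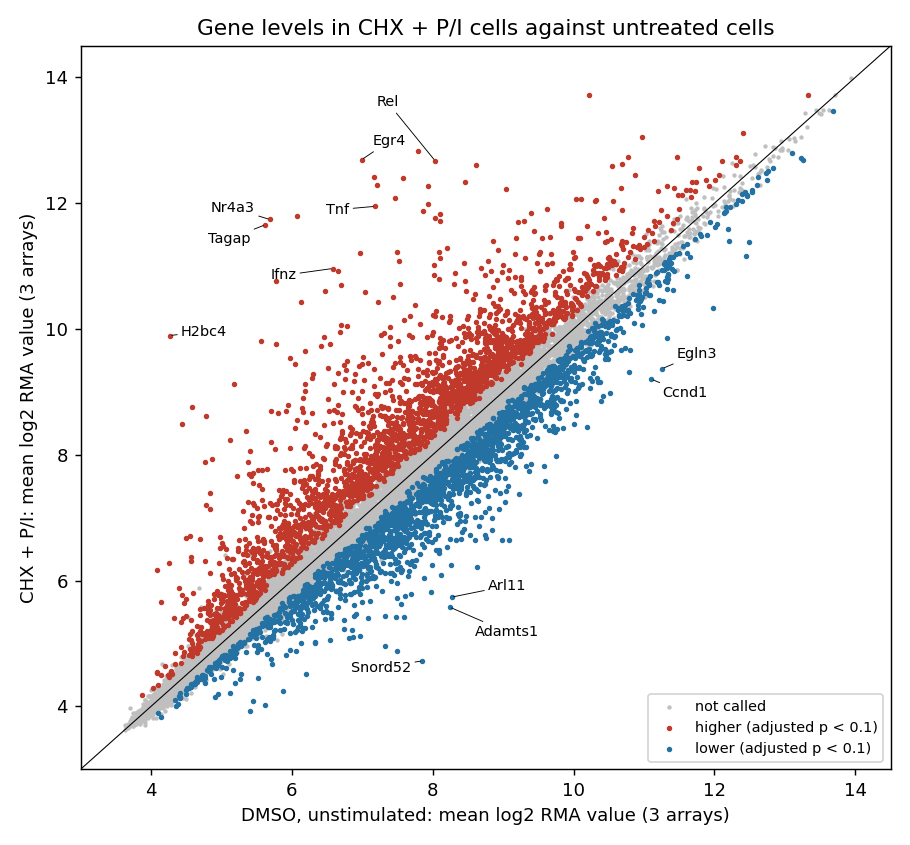
Mean log2 RMA value of each of the 19938 genes in CHX + P/I cells (y axis, 3 arrays) against DMSO, unstimulated cells (x axis, 3 arrays), with genes called higher in red and lower in blue. The 161 genes higher by over 4-fold spread far above the diagonal, while only 17 lie as far below it.

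The shares called differed with the level in untreated cells. Between log2 4 and 5, 2.70% of genes were higher in CHX + P/I cells and 1.01% lower, between 8 and 9 the shares were 24.4% and 21.2%, and between 12 and 13 they were 8.75% and 32.5%. Rises over 2-fold had their highest share, 7.41%, in genes that were at log2 7 to 8 in untreated cells. The bins were set by the untreated arrays that also enter each difference, so that level and difference are not independent. The bin from 12 to 13 held only 80 genes. Where gene lists are set beside all genes below, the share of all genes does not allow for level unless a level is given.

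The 14 largest rises were 20.9- to 66.7-fold and included the transcription factor genes Nr4a3, Egr2, Egr3, Egr4, Fos and Rel. Nr4a3, an orphan nuclear receptor induced by T cell receptor signals, measured log2 11.84, 11.63 and 11.75 in CHX + P/I arrays and 5.65, 5.59 and 5.82 in DMSO, unstimulated arrays, a difference of 6.06 (SE 0.18, adjusted p = 7.85e-09) or 66.7-fold. Tagap, a gene of activated T cells, measured 11.99, 11.37 and 11.60 against 5.94, 5.39 and 5.53 (6.04, SE 0.33, adjusted p = 3.36e-07). For the zinc finger factor Egr2 the CHX + P/I arrays gave 11.52, 11.79 and 12.07 and the DMSO, unstimulated arrays 5.57, 6.10 and 6.57 (5.72, SE 0.41). Genes with overlapping groups were passed over in choosing the 14, so the lack of overlap in these genes was set by the choice. Egr4 measured 12.60, 12.71 and 12.77 in CHX + P/I arrays against 6.62, 6.90 and 7.45 in untreated arrays (5.70, SE 0.23), and Egr3 rose by 5.24 (SE 0.29). Fos, a subunit of AP-1, measured 10.75, 10.71 and 10.81 in CHX + P/I arrays against 6.10, 5.81 and 5.42 in untreated arrays (4.98, SE 0.28, adjusted p = 4.06e-07). The immediate early gene Ier2 rose by 5.09, the growth arrest gene Gadd45b by 4.61, the early activation receptor Cd69 by 4.82 and the NF-κB subunit gene Rel by 4.64. These 4 rises were 24.4-fold or more, and the other members of the 14 largest were Dusp1, Tnf, the histone gene H2bc4 and the interferon gene Ifnz, described below.

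**Figure D2:**
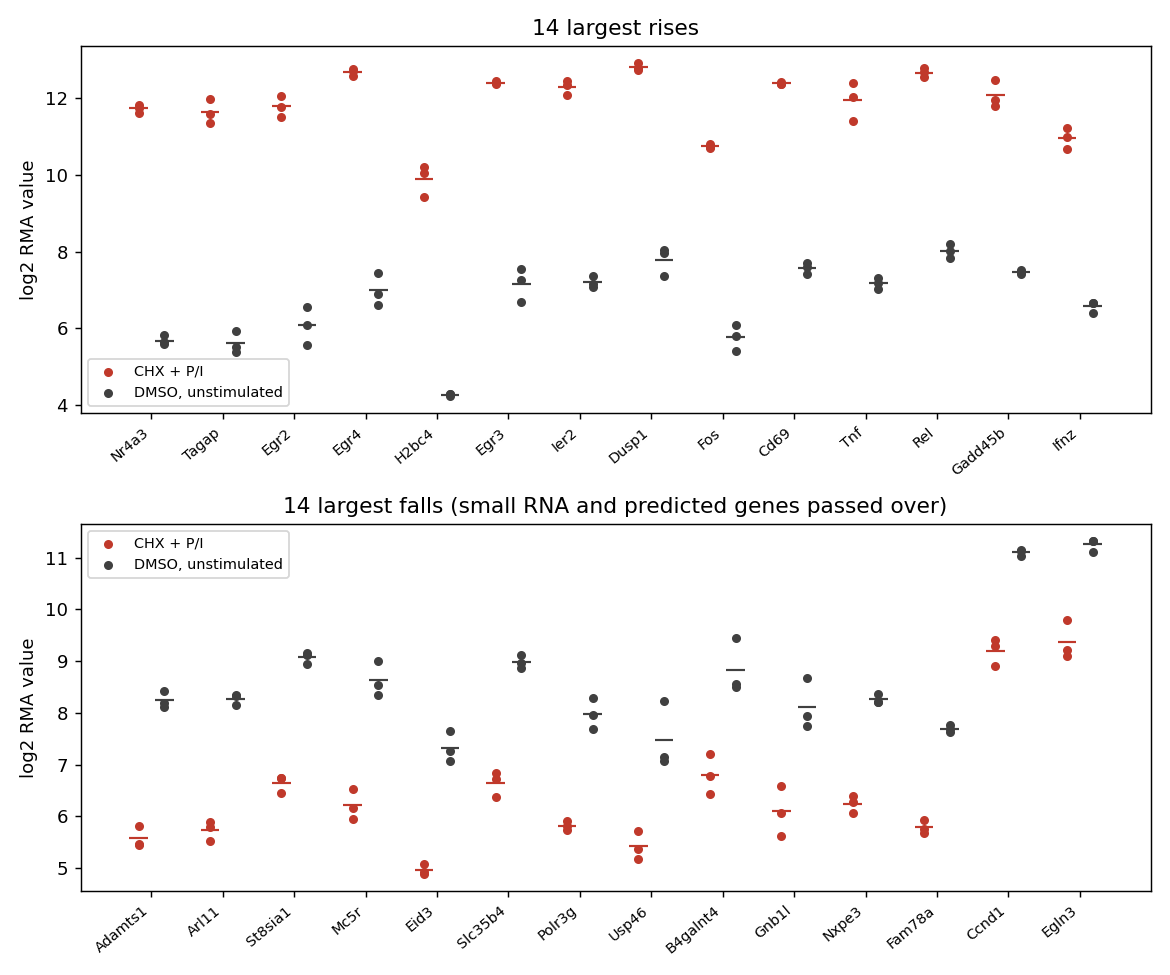
Log2 RMA values on each array (points) with group means (bars) for the 14 largest rises and the 14 largest falls among called genes without overlap, CHX + P/I in red and DMSO, unstimulated in grey; microRNA, snoRNA and predicted genes are passed over. The rises span 20.9- to 66.7-fold and the falls 3.70- to 6.35-fold.

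Immediate early transcription factors rose nearly throughout. Of 27 measured, 23 were higher and 1 lower in CHX + P/I cells, 85.2% higher beside 12.2% of all genes, with a median difference of 3.02 beside −0.03 over all genes. Over the 18556 protein-coding genes P/I without CHX raised 1841 and lowered 1762, which applies to the later lists as well. Of the immediate early list it raised 15 and lowered 1, with a median of 1.12, and the interaction was positive and past the threshold for 16. For several, neither separate difference passed the threshold. Fosb, an AP-1 subunit, measured 11.57, 12.35 and 11.71 with CHX + P/I, 8.06, 8.16 and 8.31 with P/I, 7.09, 8.41 and 8.82 with CHX, and 6.97, 8.18 and 8.44 in untreated cells. Its joint difference was 4.01 (SE 0.44, adjusted p = 5.56e-05), beside 0.32 for P/I (adjusted p = 0.752) and 0.24 for CHX (adjusted p = 0.933), and the interaction was 3.45 (adjusted p = 0.00436). Jun, the partner of Fos, measured 9.65, 10.30 and 10.26 with CHX + P/I, against 6.05, 7.23 and 6.81 in untreated cells (3.38, SE 0.45), beside −0.29 with P/I and 0.89 with CHX, neither of which passed. The Krüppel-like factor Klf10 rose by 3.14 and differed by 0.21 with P/I (adjusted p = 0.769). In Jun, Fosb and Klf10 the first untreated array was the lowest of its group, and the groups still did not overlap.

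Among the other members Junb rose by 4.00, Egr1 by 3.72, Fosl2 by 3.62, Nr4a1 by 3.51, Maff by 3.02 and Myc by 2.08. Myc, the growth regulator, measured 13.28, 12.96 and 12.90 in CHX + P/I arrays against 11.64, 10.68 and 10.59 in untreated arrays (SE 0.27, adjusted p = 0.000192). Jund rose by 1.43 with CHX + P/I and by 1.24 with P/I, with an interaction of 0.11 (adjusted p = 0.858). Klf2, a factor of resting T cells, rose by 1.60 in CHX + P/I cells whereas P/I without CHX lowered it by 1.21. Srf, which drives many of these genes through the CArG box, was the single member called lower (−0.60, adjusted p = 0.0473). Its difference was −0.31 without the first CHX + P/I array, and its call was lost without the first or the third untreated array (adjusted p = 0.113 and 0.117). Atf3 (0.44, adjusted p = 0.108, but 0.0311 with the same-numbered arrays of the groups as blocks, called the blocked fit from here), Klf4 (−0.01) and Mafg (−0.12) were not called.

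NF-κB subunits and their inhibitors rose nearly throughout. NF-κB is held in the cytoplasm by inhibitor proteins, whose genes it induces in turn. Of 18 measured members 15 were higher (83.3%) in CHX + P/I cells by limma, with 15 higher and 1 lower at an unadjusted p under 0.05, and their median difference was 2.45. Relb measured log2 10.45, 10.24 and 10.60 in CHX + P/I arrays and 6.14, 6.15 and 6.12 in DMSO, unstimulated arrays (4.29, SE 0.12, adjusted p = 5e-09). The inhibitor gene Nfkbia measured 12.42, 12.14 and 12.28 in CHX + P/I arrays against 7.89, 8.02 and 7.87 in untreated arrays (4.35, SE 0.15), beside 2.90 with P/I alone, and the interaction was 1.00 (adjusted p = 0.0133). Neither gene had overlapping groups, and Relb had the smallest p of all genes. The inhibitor genes Nfkbid and Nfkbie rose by 4.25 and 4.24, and Tnfaip3, which encodes the ubiquitin-editing enzyme A20, by 4.12. The subunit genes Nfkb2 and Rela rose by 3.02 and 1.82, and the ubiquitin ligase gene Birc3 by 3.32. Cyld (−0.33, but adjusted p = 0.0481 in the blocked fit) and Tnip2 (−0.17) were not called, nor was Tnip3, which is described with the genes that rose with P/I alone.

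Genes of the MAP kinase brakes behaved in more than one way. Of 14 dual-specificity phosphatases, Sprouty and Spred genes, 10 were higher in CHX + P/I cells (71.4%), as they were at an unadjusted p under 0.05. Dusp1, a nuclear phosphatase of MAP kinases, measured 12.94, 12.80 and 12.73 in CHX + P/I arrays against 7.97, 8.06 and 7.36 in untreated arrays (5.03, SE 0.29, adjusted p = 4.59e-07), beside 1.24 with P/I and 1.49 with CHX, and the interaction was 2.30. Dusp8 rose by 3.41 and Dusp16 by 2.38, beside 0.44 and 0.28 with P/I. Spry1, by contrast, measured 9.81, 9.40 and 9.73 with CHX + P/I and 9.67, 9.47 and 9.76 with P/I, against 6.0, 6.16 and 6.40 in untreated cells. Its 2 stimulated groups overlapped, and the interaction of −0.36 did not pass (adjusted p = 0.515). Dusp4 (1.90, adjusted p = 0.0702) lost its call without the first untreated array (1.10) and without the second or the third CHX + P/I array (1.69 and 1.86).

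Of 12 RNA-binding proteins that set the stability of short-lived mRNAs, 4 had higher mRNA in CHX + P/I cells (33.3%, beside 12.2% of all genes). The list had a median of log2 9.05 in untreated cells, and of all genes at log2 9 to 10 there 18.7% were higher. Zfp36, which encodes tristetraprolin, measured 10.90, 10.92 and 10.96 in CHX + P/I arrays against 6.17, 6.80 and 7.0 in untreated arrays (4.27), beside 0.64 with P/I (adjusted p = 0.251). Zfp36l1 rose by 3.55, the RNase gene Zc3h12a by 2.85 and the roquin family gene Rc3h2 by 0.84.

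Promoters of several of these genes are shown because they hold known promoter motifs, among them those of NF-κB, Egr and Srf. The sequences are from RefSeq on build GRCm38.p6, 250 bases before the transcription start, 5′ to 3′ on the strand of the gene, and capitals mark the motif. In Dusp1 (chr17:26508473-26508722, minus strand) it is the cyclic AMP response element TGACGTCA. In Egr2 (chr10:67537316-67537565, plus strand) it is the CArG box, in Nfkbia (chr12:55492648-55492897, minus strand) a pair of matches to the NF-κB motif GGNNTTTCC, and in Zfp36 (chr7:28379229-28379478, minus strand) the Egr motif GCGGGGGCG followed by a CArG box. In Tnf (chr17:35202008-35202257, minus strand) the capitals mark the TATA box.
Dusp1: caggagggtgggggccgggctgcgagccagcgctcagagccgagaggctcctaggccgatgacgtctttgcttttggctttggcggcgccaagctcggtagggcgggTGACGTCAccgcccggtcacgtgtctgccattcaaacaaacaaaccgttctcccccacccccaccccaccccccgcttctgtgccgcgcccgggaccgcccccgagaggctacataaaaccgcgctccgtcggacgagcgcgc
Egr2: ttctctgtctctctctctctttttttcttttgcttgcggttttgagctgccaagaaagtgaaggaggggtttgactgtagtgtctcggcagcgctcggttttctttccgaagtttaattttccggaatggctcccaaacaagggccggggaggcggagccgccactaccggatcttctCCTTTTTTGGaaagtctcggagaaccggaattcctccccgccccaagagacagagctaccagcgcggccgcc
Nfkbia: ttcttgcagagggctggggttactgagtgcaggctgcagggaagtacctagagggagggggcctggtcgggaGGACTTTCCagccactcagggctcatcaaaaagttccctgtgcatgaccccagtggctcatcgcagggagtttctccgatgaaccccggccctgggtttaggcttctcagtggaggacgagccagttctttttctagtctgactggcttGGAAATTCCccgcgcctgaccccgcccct
Zfp36: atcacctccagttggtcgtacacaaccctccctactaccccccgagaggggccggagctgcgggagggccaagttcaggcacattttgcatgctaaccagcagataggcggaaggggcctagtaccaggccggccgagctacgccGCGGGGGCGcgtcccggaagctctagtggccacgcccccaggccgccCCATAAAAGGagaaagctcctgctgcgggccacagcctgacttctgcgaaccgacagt
Tnf: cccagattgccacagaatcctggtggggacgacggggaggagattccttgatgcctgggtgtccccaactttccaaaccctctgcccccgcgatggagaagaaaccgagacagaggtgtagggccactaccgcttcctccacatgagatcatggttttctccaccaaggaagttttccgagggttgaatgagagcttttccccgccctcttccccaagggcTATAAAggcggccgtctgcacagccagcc

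The motifs were counted on both strands in windows of 300 bases, the 250 before and 50 after each start, and 15563 of the 19938 genes had such a window. TGACGTCA was in 5.98% of the windows of genes higher by over 2-fold (42 of 702), in 0.37% of those lower by over 2-fold (1 of 270) and in 2.37% of all windows (454 of 19116). GGNNTTTCC was in 9.83%, 5.19% and 5.78%, and in 40.9% of the windows of the NF-κB group (9 of 22). GCGGGGGCG was in 6.27%, 9.26% and 4.17%, and in 25.9% of the windows of the immediate early group (7 of 27). The CArG box was in 2.28%, 1.11% and 1.41%, and in 18.5% of the immediate early windows (5 of 27). Those 5 windows belong to only 2 of 21 genes, and 4 of them are alternative windows of Egr2. The AP-1 motif TGAGTCA was in 4.27%, 1.85% and 4.61%, and TATAAA in 9.83%, 6.30% and 11.5%. A CArG box can contain TATAAA, windows of 1 gene may overlap, and a match describes letters only.

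Cytokine and chemokine genes divided by their response to CHX. Of 23 measured, 11 were higher in CHX + P/I cells (47.8%; 11 also without the first CHX + P/I array, of which more below), or 12 at an unadjusted p under 0.05, and P/I without CHX raised 15, while the interaction was positive for 1 and negative for 9. Tnf, the inflammatory cytokine, measured log2 12.40, 11.41 and 12.04 in CHX + P/I arrays and 7.31, 7.04 and 7.18 in DMSO, unstimulated arrays (4.77, SE 0.27, adjusted p = 4.05e-07). The leukaemia inhibitory factor gene Lif rose by 3.85. Cxcl10, a chemokine for T cells, measured 8.37, 8.19 and 8.15 with CHX + P/I, 5.29, 5.22 and 5.22 with P/I, 4.96, 4.88 and 5.14 with CHX, and 5.01, 5.08 and 5.26 in untreated cells. Only the CHX + P/I arrays of Cxcl10 stood above the rest, with a joint difference of 3.12 (SE 0.10, adjusted p = 7.85e-09) and an interaction of 3.12, the single positive one in the group.

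Il2, the T cell growth factor, was the strongest case on the other side. It measured 8.63, 5.46 and 6.03 in CHX + P/I arrays against 4.43, 4.57 and 4.67 in DMSO, unstimulated arrays (2.15, SE 0.60, adjusted p = 0.0261), beside a P/I difference of 7.46 and an interaction of −5.40 (adjusted p = 0.0021). Its first CHX + P/I array was far above the other two, and without it the difference was 1.19 and still called. Ccl1 measured 7.93, 6.53 and 6.86 against 5.22, 5.42 and 5.27 in untreated arrays (1.80), beside 6.56 with P/I. Il6 rose by 2.08 and Csf1 by 1.18, beside 4.21 and 3.87 with P/I. Csf2 measured 8.16, 5.19 and 5.87 in CHX + P/I arrays against 4.91, 5.08 and 5.18 in untreated arrays and was not called (1.35, adjusted p = 0.228). Il4, the type 2 cytokine, measured 6.75, 4.85 and 5.12 in CHX + P/I arrays against 4.89, 4.68 and 4.58 in untreated arrays (0.86, adjusted p = 0.254, and adjusted p = 0.0809 in the blocked fit). The first CHX + P/I array was the highest in Il2, Ccl1, Csf2, Il4, Ccl3 and Fcgr1. Ccl3, a chemokine for monocytes, measured 11.33, 6.84 and 8.11 in CHX + P/I arrays against 4.59, 4.51 and 4.67 in untreated arrays (4.17, SE 0.82), and the difference was 2.89 without that array. For Ccl4 it was 1.77 with all arrays and 0.94 without that one, both called.

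Of 21 activation markers of the T cell surface 9 rose (42.9%), whereas P/I without CHX raised 16, beside 1841 of the 18556 protein-coding genes. Cd274, the ligand of the checkpoint receptor PD-1, measured 10.18, 9.96 and 10.01 with CHX + P/I and 10.35, 9.99 and 10.20 with P/I, against 6.59, 6.80 and 6.97 in untreated cells (3.26, SE 0.12, adjusted p = 1.86e-08). The 2 stimulated groups of Cd274 overlapped. The ligand gene Tnfsf9 rose by 3.95, Tnfsf14 by 2.98 and the checkpoint receptor gene Pdcd1 by 1.57. Icos, a costimulatory receptor, rose by 1.73 with CHX + P/I and differed by 0.16 with P/I (interaction 1.60). For Tnfrsf9 and Fasl, which induces death of target cells, the joint differences were 0.50 and 0.28, beside 1.84 and 1.23 with P/I.

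**Figure D3:**
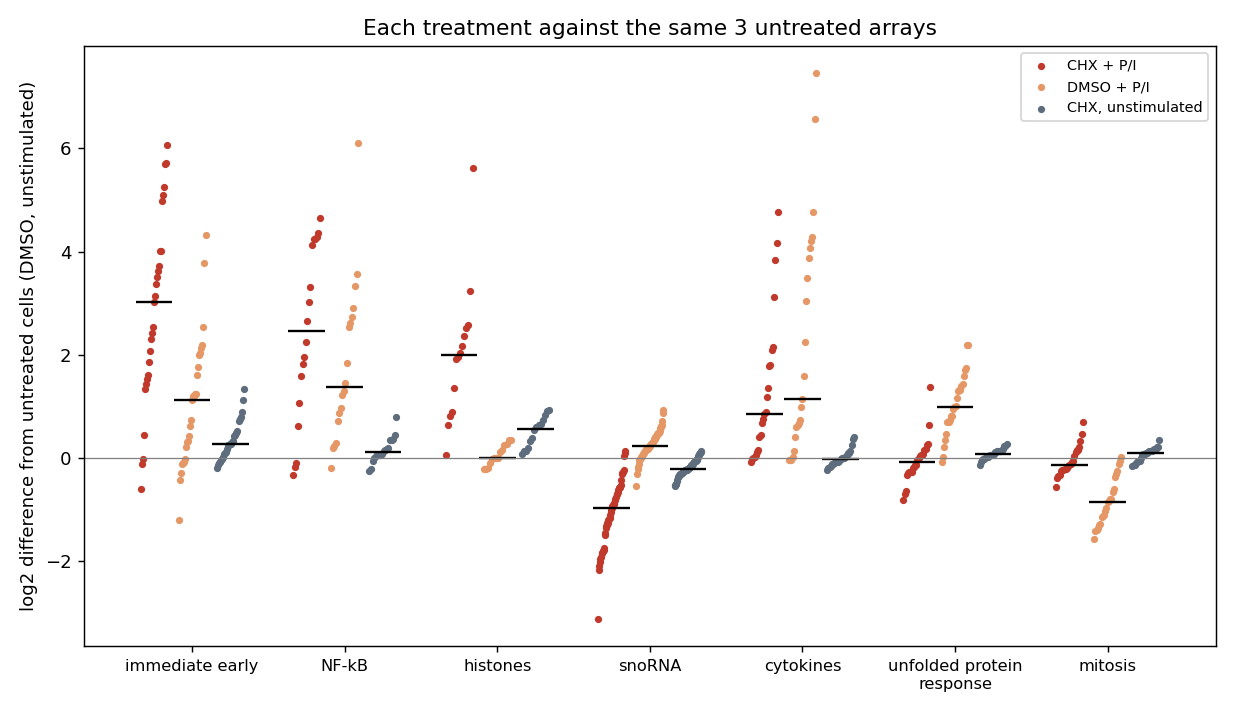
Log2 difference from the same 3 untreated arrays for each member of 7 gene groups (points; bars are medians), with CHX + P/I in red, DMSO + P/I in orange and CHX, unstimulated in grey. Immediate early genes and histones sit highest with CHX + P/I (medians 3.02 and 2.0), snoRNA genes sit lowest there (−0.96), and cytokines and unfolded protein response genes reach higher with P/I alone.

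Histone genes rose in CHX + P/I cells and stayed close to the untreated level with P/I alone. Replication-dependent histone mRNAs lack a poly(A) tail and are normally degraded when DNA synthesis stops. Of 14 measured, 13 were higher with CHX + P/I (92.9%), by limma and at an unadjusted p under 0.05 alike, with a median of 2.0. With P/I all 14 stayed within 0.5 of the untreated level on the log2 scale, and with CHX the median was 0.57. The interaction was positive and past the threshold for 13. H2bc4 measured 10.20, 9.43 and 10.06 in CHX + P/I arrays against 4.23, 4.30 and 4.28 in untreated arrays (5.63, SE 0.20, adjusted p = 1.28e-08), beside 0.34 with P/I. The linker histone gene H1f2 measured 10.04, 9.69 and 9.58 with CHX + P/I, 6.91, 6.79 and 6.40 with P/I, 7.0, 7.03 and 7.23 with CHX, and 6.49, 6.51 and 6.63 in untreated cells (3.23, SE 0.14). H2bc3, H2bc8 and H2ac4 rose by 2.58, 2.52 and 2.37, and H1f3, H1f1 and H4c3 by 2.18, 2.04 and 1.36. H1f5 (0.06) was not called. The core histone genes are near copies of one another, so that reads of single members from these probe sets are uncertain.

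Several genes that hold T cells at rest rose. Of 18 quiescence and homing factors 9 were higher (50%) and 1 lower (5.56%) in CHX + P/I cells, or 2 lower in the blocked fit. Over all genes 12.2% were higher and 10.2% lower. The list had a median of log2 8.14 in untreated cells, and of all genes at log2 8 to 9 there 24.4% were higher and 21.2% lower. The antiproliferative gene Btg2 measured 12.30, 12.36 and 12.36 in CHX + P/I arrays against 7.69, 8.64 and 9.02 in untreated arrays (3.89), beside 0.71 with P/I (adjusted p = 0.3). Its relatives Tob2, Btg1 and Tob1 rose by 2.15, 2.04 and 0.92. Txnip, an inhibitor of glucose uptake, measured 10.98, 11.71 and 11.64 in CHX + P/I arrays against 8.85, 9.69 and 10.12 in untreated arrays (1.89, adjusted p = 0.00861), beside a fall of 2.67 with P/I, and the interaction was 3.20. Arrdc3, its relative, measured 10.97, 10.97 and 11.12 in CHX + P/I arrays against 8.66, 7.71 and 7.70 in untreated arrays (3.00), beside −1.01 with P/I and 1.69 with CHX (adjusted p = 0.0474). Arrdc3 and the splicing kinase gene Clk1 were among the 7 probe sets that CHX raised in unstimulated cells. The receptor gene Il7r fell by 1.43, beside −1.94 with P/I.

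Genes with a joint difference but neither separate one past the threshold included, on the higher side, H2bc4, Ifnz, Zfp36, Olfr1372-ps1, Fosb and Btg2. Ifnz, a type I interferon, measured 10.67, 10.99 and 11.22 with CHX + P/I, 6.48, 7.53 and 6.74 with P/I, 6.77, 6.75 and 7.35 with CHX, and 6.39, 6.67 and 6.67 in untreated cells. The joint difference was 4.38 (SE 0.25, adjusted p = 4.59e-07) and the interaction 3.67. Of 17 interferon-stimulated genes 4 rose (23.5%, or 2 genes without the third CHX + P/I array) and 2 fell (11.8%). Over all genes the shares were 12.2% and 10.2%. The list had a median of log2 5.5 in untreated cells, and of all genes at log2 5 to 6 there 7.1% were higher and 2.83% lower. The rises included the interferon regulatory factors Irf1 (2.54) and Irf9 (2.47). The antiviral genes Mx1 (−0.02), Oas1a (−0.03), Ifit1 (−0.07) and Usp18 (−0.13) were not called. A further Irf1 probe set, at log2 5.52 in CHX + P/I cells and 5.47 in untreated cells, did not share the rise. Olfr1372-ps1, an olfactory receptor pseudogene, measured 9.12, 7.73 and 8.61 in CHX + P/I arrays against 4.53, 4.37 and 4.44 in untreated arrays (4.04). Its nearest measured neighbours in RefSeq, Ppp2ca (0.44) and Skp1 (−0.30, adjusted p = 0.104, and 0.0312 in the blocked fit), were far from that size. Of all 1027 olfactory receptor genes 13 were higher (1.27%) and 21 lower (2.04%).

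Some genes of the transcription and RNA processing machinery rose, while others were not called or fell. Of 26 splicing factors and Clk kinases 14 were higher (53.8%, or 16 at an unadjusted p under 0.05), led by Clk1 (1.81) and Clk4 (1.72), which phosphorylate SR proteins, with Tra2a at 1.01 and Sf3a1 at 0.91. Clk1 measured 11.02, 11.10 and 11.26 with CHX + P/I and 10.01, 10.46 and 10.56 with CHX, against 9.41, 9.29 and 9.24 in untreated cells. Of 21 elongation factors 9 rose (42.9%) and 1 fell (4.76%), or 2 in the blocked fit. The rises included the cyclin T genes Ccnt1 (1.48) and Ccnt2 (1.13), whose products activate Cdk9 (0.62). Of 32 RNA polymerase II, Mediator and general factors 14 rose (43.8%) and 1 fell (3.12%), or 2 in the blocked fit. Among the rises were Med14 (1.19), Taf7 (1.01) and the largest subunit gene Polr2a (0.56). That count of rises was 6 without the second replicate of each group and 22 without the first. Of 35 histone-modifying enzymes 13 rose (37.1%) and 7 fell (20%), or 8 and 3 without the third CHX + P/I array. Over all genes 12.2% were higher and 10.2% lower. The elongation, polymerase and histone-modifying lists had medians of log2 8.89, 8.87 and 8.97 in untreated cells. Of all genes at log2 8 to 9 there 24.4% were higher and 21.2% lower, so that the falls among histone-modifying enzymes were near that share. The H3K27 demethylase gene Kdm6b measured 10.56, 10.81 and 11.02 in CHX + P/I arrays against 8.16, 7.91 and 8.19 in untreated arrays (2.71), and Kdm2b (1.91) and Sirt1 (1.32) also rose, while Hdac7 (−1.08) and Setd1a (−0.83) fell. Of 350 zinc finger (Zfp) genes 102 were higher (29.1%) and 37 lower (10.6%).

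Among T cell factors, Nfatc1, the inducible NFAT gene, measured 10.23, 9.45 and 10.11 in CHX + P/I arrays against 7.09, 7.38 and 7.43 in untreated arrays (2.63), beside 2.39 with P/I. Nfat5 rose by 2.20, Nfatc3 fell by 0.79 and the calcineurin gene Ppp3ca by 0.76. In the T cell receptor pathway 5 of 20 rose (25%, beside 12.2% of all genes), with Bcl10 at 2.45 and Lcp2 at 1.47. In the same list 4 fell (20%, beside 10.2%), with the inhibitory kinase gene Csk at −0.71. The list had a median of log2 8.98 in untreated cells. Of all genes at log2 8 to 9 there 24.4% were higher and 21.2% lower, close to the shares of the list. The lineage factor genes Bcl6 and Bhlhe40 rose by 2.61 and 2.30, and Runx3 and Id2 fell by 1.07 and 1.03. The chaperone gene Hspa4l rose by 2.94, the cytokine signalling inhibitor gene Socs3 by 2.01, the polyamine acetyltransferase gene Sat1 by 1.97 and the cell death gene Bcl2l11 by 1.35.

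**Figure D4:**
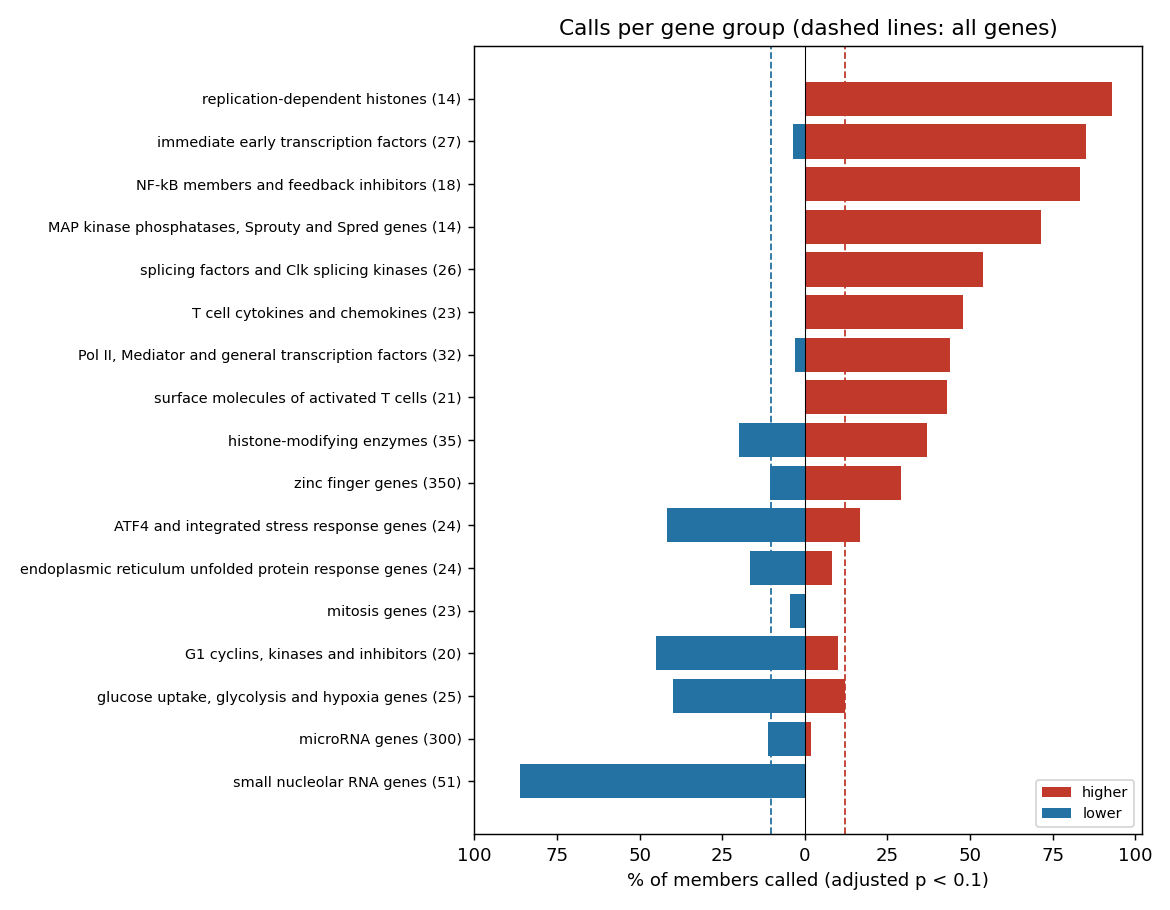
Share of the measured members of each gene group (number in brackets) called higher (right, red) or lower (left, blue) in CHX + P/I cells against DMSO, unstimulated cells; dashed lines are the shares over all genes, 12.2% and 10.2%. Histone, immediate early and NF-κB genes lie far to the right (92.9%, 85.2% and 83.3%) and small nucleolar RNA genes far to the left (86.3%).

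Falls were smaller than rises, and the deepest among genes other than small RNA and predicted genes was 6.35-fold. Adamts1, a secreted protease, measured log2 5.47, 5.81 and 5.45 in CHX + P/I arrays and 8.42, 8.11 and 8.20 in DMSO, unstimulated arrays (−2.67, SE 0.16, adjusted p = 6.73e-07). Arl11, a small GTPase, measured 5.80, 5.90 and 5.51 against 8.34, 8.32 and 8.14 in untreated arrays (−2.53), and St8sia1, a sialyltransferase, 6.75, 6.75 and 6.45 against 8.95, 9.12 and 9.16 (−2.43). As with the rises, genes with overlapping groups were passed over in choosing the 14 largest falls. Mc5r, a melanocortin receptor, fell by 2.42 with CHX + P/I and by 2.49 with P/I, with an interaction of 0.01. Polr3g, a subunit of RNA polymerase III, measured 5.73, 5.81 and 5.91 with CHX + P/I, 8.13, 7.14 and 7.43 with P/I, 8.44, 7.88 and 7.61 with CHX, and 8.29, 7.69 and 7.96 in untreated cells (−2.16, adjusted p = 9.97e-05). It belonged with Eid3 (−2.37), Usp46 (−2.06), B4galnt4, Gnb1l (−2.02) and Ccnd1 to the genes whose joint fall had neither separate difference past the threshold. A further Gnb1l probe set differed by −0.11 (adjusted p = 0.658). Slc35b4 (−2.34), Nxpe3 (−2.02), Fam78a (−1.91) and Egln3 (−1.89) made up the rest of the 14.

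More G1 regulators fell than rose. Cyclin D and cyclin E with their kinases take the cell from G1 into S phase. Of 20 measured 9 were lower (45%) and 2 higher (10%) in CHX + P/I cells, beside 10.2% and 12.2% of all genes. The list had a median of log2 8.44 in untreated cells, and of all genes at log2 8 to 9 there 21.2% were lower and 24.4% higher. Ccnd1, cyclin D1, measured 9.29, 9.40 and 8.91 with CHX + P/I, 11.10, 11.83 and 11.50 with P/I, 11.15, 10.99 and 11.16 with CHX, and 11.12, 11.04 and 11.15 in untreated cells. The joint difference was −1.90 (SE 0.17, adjusted p = 1.14e-05), beside 0.37 with P/I (adjusted p = 0.206), and the interaction was −2.27. Ccne2, cyclin E2, measured 5.12, 5.14 and 5.04 in CHX + P/I arrays against 7.40, 6.78 and 6.41 in untreated arrays (−1.76), and Ccne1 fell by 0.95, E2f1 by 0.89, Cdk6 by 0.83 and Cdk4 by 0.55. Of the cyclin-dependent kinase inhibitors Cdkn2d (1.29) and Cdkn2b (0.65) rose, and Cdkn2c fell by 0.93. Of 23 mitosis genes only Ccna2 (−0.56) was called (2 lower and 1 higher in the blocked fit), whereas P/I without CHX lowered 15, with a median of −0.85, and the interaction was positive and past the threshold for 9.

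Of 25 genes of glucose uptake, glycolysis and hypoxia 10 were lower (40%) and 3 higher (12%), beside 10.2% and 12.2% of all genes. The list had a median of log2 10.41 in untreated cells, and of all genes at log2 10 to 11 there 22.8% were lower and 15.4% higher. Egln3, an oxygen-sensing hydroxylase, measured 9.22, 9.79 and 9.10 with CHX + P/I and 9.87, 10.16 and 9.58 with P/I, against 11.11, 11.33 and 11.33 in untreated cells. Egln1 fell by 1.54, the hexokinase gene Hk2 by 1.47 and the glucose transporter gene Slc2a1 by 0.81. The glycolytic kinase regulator Pfkfb3 rose by 0.78, next to Arrdc3 and Txnip. Without the third untreated array 6 of these genes were lower in place of 10, and without the third replicate of each group 3. In a list of 16 genes drawn up for cholesterol synthesis 2 fell (12.5%, beside 10.2% of all genes), and 4 did in the blocked fit. The 2 were Sqle (−1.74) and Scd2 (−1.10), of which Scd2 encodes a fatty acid desaturase and not an enzyme of cholesterol synthesis.

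Some of the genes that P/I raised did not rise when CHX was present. Tnip3, an inhibitor of NF-κB signalling, measured 4.69, 4.78 and 4.54 with CHX + P/I and 11, 10.50 and 11.10 with P/I, against 4.68, 5.04 and 4.59 in untreated cells. The CHX + P/I and untreated arrays overlapped (−0.10, adjusted p = 0.776), the P/I difference was 6.10 and the interaction −6.13. Sema7a, a membrane semaphorin, differed by 0.21 with CHX + P/I beside 4.80 with P/I, and Olfr644 by 0.26 beside 5.0. Irf4, a transcription factor of activated lymphocytes, measured 6.71, 4.79 and 4.78 in CHX + P/I arrays against 4.65, 4.50 and 4.43 in untreated arrays (0.90, not called, and adjusted p = 0.0926 in the blocked fit), beside 4.43 with P/I. Over all genes the interaction was positive and past the threshold for 1195 (5.99%) and negative for 1521 (7.63%).

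Other genes that P/I raised lay below the untreated level under CHX. Herpud1, a factor of protein degradation at the endoplasmic reticulum, measured 9.27, 9.42 and 9.45 with CHX + P/I, 12.27, 12.04 and 12.47 with P/I, 10.17, 10.29 and 10.16 with CHX, and 9.84, 10.06 and 10.33 in untreated cells. The joint difference was −0.70 (SE 0.13, adjusted p = 0.00267), and the interaction −3.0. Chac1, which degrades glutathione, measured 6.17, 6.23 and 6.04 in CHX + P/I arrays against 6.68, 7.21 and 7.93 in untreated arrays (−1.12), beside 2.07 with P/I. The lipase gene Mgll fell by 0.81, beside 2.08 with P/I. The kinase genes Tec (−0.35) and Jak2 (−0.47) and the genes Calcrl (−0.55), Pgap1 (−0.62) and Gfod1 (−0.37) were also called lower, beside P/I differences of 3.00 to 3.19. Of these 8 genes 3, Herpud1, Chac1 and Mgll, kept the call without each single array of the 2 groups in turn.

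Genes of the unfolded protein response rose with P/I, and few were called with CHX + P/I. Of 24 measured, 2 were higher (8.33%) and 4 lower (16.7%) in CHX + P/I cells, beside 12.2% and 10.2% of all genes. The list had a median of log2 10.07 in untreated cells, and of all genes at log2 10 to 11 there 15.4% were higher and 22.8% lower. P/I without CHX raised 21, and the interaction was negative and past the threshold for 18. Hspa5, the BiP chaperone, rose by 0.65 beside 1.40 with P/I, and Sel1l fell by 0.64 beside a P/I difference of 1.70. Of 24 ATF4 and stress response genes 4 were higher (16.7%) and 10 lower (41.7%), and P/I without CHX raised 15. This list had a median of log2 8.4 in untreated cells, and of all genes at log2 8 to 9 there 24.4% were higher and 21.2% lower. Ddit3, the factor CHOP, rose by 1.92, the phosphatase regulator Ppp1r15a by 2.27 and Atf4 by 1.04. Trib3, an ATF4 target, measured 6.86, 7.78 and 7.11 with CHX + P/I, 10.20, 10.65 and 10.80 with P/I, and 8.51, 9.13 and 9.43 in untreated cells (−1.77), and Cebpg (−0.76) and Mthfd2 (−0.61) fell too.

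The most one-sided fall was that of the small nucleolar RNA genes. SnoRNAs guide the methylation and pseudouridylation of ribosomal RNA, and most are cut from introns of host genes, many of them genes of the translation machinery. Of 51 measured, 44 were lower in CHX + P/I cells (86.3%, beside 10.2% of all genes), 46 at an unadjusted p under 0.05, and 25 by more than 2-fold, with a median of −0.96. All 3 CHX + P/I arrays lay below the untreated ones for 46 of them, beside 16.9% of all genes. With P/I alone 6 were higher and the median was 0.23, with CHX alone the median was −0.21, and the interaction was negative and past the threshold for 35. Snord52, a C/D box snoRNA, measured 4.66, 4.89 and 4.62 in CHX + P/I arrays against 8.53, 7.46 and 7.56 in untreated arrays (−3.13), the only gene lower by more than 8-fold. Snord53 measured 6.54, 6.84 and 6.77 in CHX + P/I arrays against 8.76, 8.84 and 8.60 in untreated arrays (−2.02). Snord49a measured 6.75, 6.56 and 6.71 with CHX + P/I, 8.94, 9.0 and 8.98 with P/I, 8.87, 8.22 and 8.29 with CHX, and 8.84, 8.72 and 8.72 in untreated cells (−2.09, SE 0.14, adjusted p = 1.85e-06). Snord87 (−2.17), Snora75 (−1.96) and Snora33 (−1.93) were close to these.

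The snoRNA genes not called were Snord118 (0.13), Snord55 (0.09), Snora31 (0.03), Snord37 (−0.24), Snord85 (−0.29), Snord15a (−0.42) and Snord22 (−0.53), of which Snord85 and Snord22 were called lower in the blocked fit (adjusted p = 0.0567 and 0.012), and Snord15a in the blocked fit on the 6 arrays of the 2 groups alone (adjusted p = 0.088). Among RNAs of Cajal bodies Scarna8 (−0.85) and Scarna13 (−0.72) fell, and Scarna17 (−0.29, but adjusted p = 0.0772 in the blocked fit on those 6 arrays) and the telomerase RNA gene Terc (−0.16) were not called. Of 7 measured host genes 3 fell, Gas5 by 0.32, Hspa8 by 0.57 and Taf1d by 0.85, while Nop56 (0.37) and Eif4a2 (0.36) were called higher only in the blocked fit (adjusted p = 0.0619 and 0.0193). The further Gas5 probe sets differed by −1.67, −3.13 and −3.46, and those of Taf1d by −0.51 (not called, adjusted p = 0.13) to −2.44, so that the choice of probe set decided the size of both falls. The array does not tell a spliced host RNA from an intron or a processed snoRNA unless the probes separate them, and this was not tested. Small RNAs made by RNA polymerase III did not share the fall. Rn7sk measured 12.93, 13.05 and 12.97 in CHX + P/I arrays against 12.61, 13.04 and 13.19 in untreated arrays (0.04), and Rmrp (0.19), Rpph1 (0.16), Rny1 (0.01), Rny3 (−0.08), n-R5s136 (0.28) and Rnu6 (0.04) were not called. Vaultrc5, a vault RNA, rose by 1.03 (adjusted p = 0.014).

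**Figure D5:**
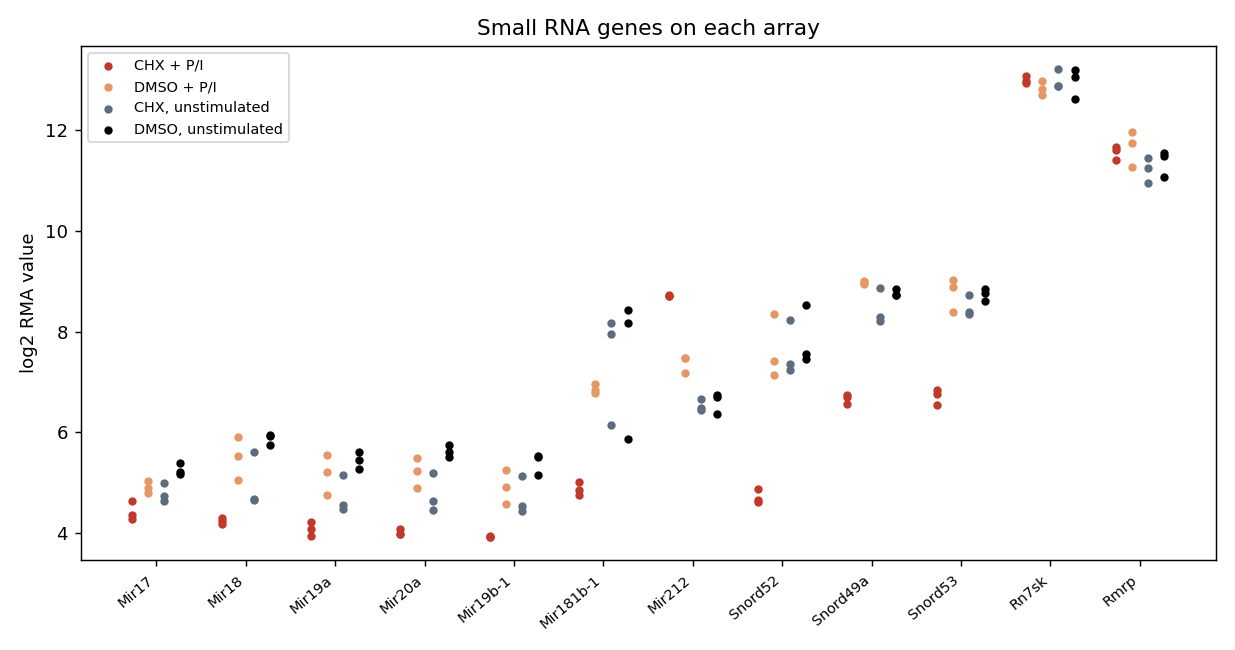
Log2 RMA values on each array of all 4 groups for microRNA genes, snoRNA genes and RNA polymerase III transcripts (Rn7sk, Rmrp). The CHX + P/I arrays (red) lie below all others for Snord52, Snord49a and Snord53 and for the Mir17 cluster, above all others for Mir212, and among the others for Rn7sk and Rmrp.

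MicroRNAs pair with target mRNAs mainly through the seed, bases 2 to 8 of the mature RNA, and lower their stability and translation. The mature sequences of those the results turn on are from RefSeq (build GRCm38.p6), 5′ to 3′, with the seed in capitals, and 270 of the 300 measured microRNA genes had a mature entry. The first group shares the seed AAAGUGC.
miR-17-5p: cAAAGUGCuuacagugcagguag
miR-20a-5p: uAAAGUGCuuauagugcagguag
miR-106b-5p: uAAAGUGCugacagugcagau
miR-93-5p: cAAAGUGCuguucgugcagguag
Then follow the other members of the same cluster and its relatives, with miR-19a and miR-19b sharing a seed, and miR-15b with miR-16.
miR-18a-5p: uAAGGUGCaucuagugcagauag
miR-19a-3p: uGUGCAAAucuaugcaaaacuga
miR-19b-3p: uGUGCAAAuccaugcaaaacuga
miR-25-3p: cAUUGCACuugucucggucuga
miR-15b-5p: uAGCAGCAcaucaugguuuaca
miR-16-5p: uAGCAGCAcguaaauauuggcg
The last pair shares a seed as well and comes from a gene pair on chromosome 11.
miR-212-3p: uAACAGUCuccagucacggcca
miR-132-3p: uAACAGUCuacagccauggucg

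Of 300 microRNA genes 33 were lower (11%) and 6 higher (2%) in CHX + P/I cells, beside 10.2% and 12.2% of all genes. Their median in untreated cells was log2 4.97, and of all genes at log2 4 to 5 there 1.01% were lower and 2.7% higher. In the blocked fit 56 microRNA genes were lower. Whether the signal came from the primary transcript, the hairpin or the mature RNA is unknown. Mir20a, in the cluster of Mir17 on chromosome 14, measured 3.98, 3.99 and 4.09 with CHX + P/I, 5.5, 4.90 and 5.23 with P/I, 5.19, 4.64 and 4.46 with CHX, and 5.74, 5.62 and 5.5 in untreated cells (−1.60, SE 0.18, adjusted p = 7.16e-05). Mir18 (−1.63), Mir19b-1 (−1.47), Mir19a (−1.37) and Mir17 (−0.83) of the same cluster fell, as did Mir17hg, the host transcript (−1.06). The levels in CHX + P/I cells lay near the lowest of the table, where background limits how far a value can fall. The related cluster of Mir106b (−0.59), Mir93 (−0.41) and Mir25 (−0.60), and Mir15b (−0.75) with Mir16-2 (−0.77), fell by less. Mir25 lost its call without the third CHX + P/I array (adjusted p = 0.104), and Mir93 without each single array of the 2 groups in turn.

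Mir181b-1, of a microRNA family abundant in developing T cells, measured 5.02, 4.87 and 4.77 in CHX + P/I arrays against 5.86, 8.44 and 8.16 in DMSO, unstimulated arrays (−2.60, SE 0.62, adjusted p = 0.0105). The first untreated array was far below the other two, and the first CHX, unstimulated array (6.14, against 8.17 and 7.95) was low as well. Without the first untreated array the difference was −3.41. Mir212 went the other way, with 8.72, 8.71 and 8.71 with CHX + P/I, 7.18, 7.47 and 7.48 with P/I, 6.49, 6.66 and 6.45 with CHX, and 6.37, 6.75 and 6.70 in untreated cells (2.11, SE 0.12, adjusted p = 3.5e-07). Mir132, its neighbour with the same seed, rose by 0.63 (adjusted p = 0.00864).

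Genes of the basic machinery had, with few exceptions, small differences. Their counts stand beside 12.2% higher and 10.2% lower over all genes. Of 31 proteasome subunits 1 rose and 1 fell, or 3 and 5 in the blocked fit. Of 28 respiratory chain and ATP synthase genes 4 fell (14.3%), by at most 0.47. In the blocked fit 11 fell, without the first CHX + P/I array 6, and without any other single array of the 2 groups 2 or fewer. Of 25 ribosomal protein genes 6 fell, Rpl12 by 1.79, Rplp2 by 0.91 and the other 4 by less than 0.3. Rpl12 measured 6.79, 6.70 and 7.11 with CHX + P/I and 9.07, 8.64 and 8.96 with P/I, against 8.95, 8.52 and 8.49 in untreated cells. The median of the list in untreated cells was far higher, at log2 12.4. Whether the Rpl12 probe set reads the spliced mRNA was not tested. Of 24 translation factors 6 fell, with Eef2k, the kinase of elongation factor 2, at −1.02, and Eif5 rose by 0.50, with 6 rises in the blocked fit. Of 18 aminoacyl-tRNA synthetases 6 fell and 1 rose (2 in the blocked fit), and 3 fell without the first or the third untreated array or the third CHX + P/I array. Of 10 factors of nonsense-mediated decay 4 rose, with Upf1 at 0.81, or 7 in the blocked fit. Among 12 reference genes Polr2a (0.56) and Ywhaz (0.30) rose, 16.7% of the list, and Pgk1 (−0.38) fell, 8.33%, or 4 and 4 genes in the blocked fit. Outside the basic machinery, of 19 p53 targets 5 rose (26.3%) and 6 fell (31.6%), among them Gadd45g (3.21) and Ei24 (−1.11). The p53 list had a median of log2 7.41 in untreated cells, and of all genes at log2 7 to 8 there 23.3% were higher and 20.5% lower.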

How the data were processed

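RNA of 12 samples in 4 groups was measured on Affymetrix Mouse Gene 1.0ST arrays. The deposited values are on a log2 scale: per the study's methods the authors adjusted the background for probe sequence, normalized by quantiles and summarized by robust multichip average in Partek, whose version is not given in the sources used here. The 23410 probe sets with at least 1 symbol in GEO's platform annotation were fitted with limma 3.58.1 (R 4.3.3), as 4 group means over all 12 arrays, with Benjamini-Hochberg adjustment at 0.1, the study's rate. Each of the 999 genes with several probe sets is represented by the brightest on average. The code was tested on simulated data.

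Genes and lists were chosen with earlier results of these data known, and the small RNA families after seeing them. Named were the 14 largest called rises and falls without overlap (microRNA, snoRNA and predicted genes passed over), the 4 smallest p per list and members by role, genes raised by P/I but not jointly, genes lowered jointly although raised by P/I, the 6 largest interactions per sign, and joint differences with neither separate one. Of 852 listed names 775 had a probe set with 1 symbol. An exact permutation test of 3 against 3 arrays cannot go below p = 0.10, so none is given.

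Replicates are biological per the labels. Same-numbered CHX + P/I and untreated arrays deviated from their group means together (correlations 0.43, 0.32 and 0.21 across genes), so the numbers, which come from the sample titles, were taken to pair these groups, and a fit with the number as a block was run. Alternatives were the fit on the 6 arrays alone, the block, median centring, quantile normalization, a minimum mean of log2 5, an adjusted p of 0.05, adjustment over other sets of probe sets, a variance trend, no moderation, array weights, and leaving out arrays or replicate numbers. Some were repeated for the small RNA genes after seeing the data.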

Additional observations from a re-analysis of the deposited data

Results flagged for a closer look

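The P/I difference under CHX departed from the P/I difference without CHX, by the test of the interaction term in limma, for 1413 probe sets in the positive and 1783 in the negative direction. The largest positive terms among named genes were those of H2bc4 (5.09), Egr4 (3.77), Olfr1372-ps1 (3.75), Ifnz (3.67), Fosb (3.45) and Txnip (3.20), and the largest negative ones those of Tnip3 (−6.13), Il2 (−5.40), Olfr644 (−4.77), Sema7a (−4.58), Ccl1 (−4.57) and Olfr1157 (−4.26).

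Probe sets with no gene symbol, which took no part in the comparison above, were fitted with the whole table. Of 11989, 532 were higher and 1962 lower in CHX + P/I cells than in DMSO, unstimulated cells, which is 4.44% and 16.4%, beside 11.6% and 10.1% of the probe sets with a symbol in the same fit. By more than 2-fold 122 were higher and 590 lower, and the extremes were log2 5.34 and −4.23. They were singled out because they carry a signal outside the named genes, and what they measure is not named here.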

How the results depend on the processing

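Of 836 named genes and list members followed one by one, none of the 353 called changed sign under any of 21 alternatives, whereas 182 of the 483 not called did under at least 1, among them Snord55, Snora31 and n-R5s136. The 28 genes with the largest rises and falls kept their call under all 21. The counts moved more. With quantile normalization 2788 probe sets were higher and 3307 lower, so that lower calls became the more frequent, as they did with the block. The 2494 probe sets lower in CHX + P/I cells became 4333 when all probe sets of the table were tested, and the share of higher calls then fell to 42.8%, against 52.9%. The joint comparison with the replicate number as a block gave 3536 higher and 3708 lower, and list members called lower went to 158 (157 with only the 6 arrays of the 2 groups), against 102. Where the block changed a call of a followed gene named above, or a list count printed above by over 1.5 times, its value is given there. It changed no other call of a followed gene named in the text. Scarna8, Scarna13, Snora75, Snora33 and Ppp2ca were not followed. Lists with no printed count moved too. Ribosome biogenesis genes went from 5 higher and 1 lower to 11 and 7, and replication genes from 3 lower to 9. The interaction counts, 1413 positive and 1783 negative, were 2351 and 2851 with the block, 2824 and 2677 with array weights, and 862 positive after centring the arrays on their median. Across the 4 groups of the interaction, same-numbered arrays correlated at 0.06 to 0.75. The lowest value was that of the third CHX + P/I and DMSO + P/I arrays. The numbers thus went with shared deviations to an uneven degree, and a pairing of all 4 groups is not shown.

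Leaving out single arrays or all 4 arrays of a replicate number gave 1415 to 3651 probe sets higher and 953 to 3480 lower, 234 to 2260 positive and 465 to 2406 negative interactions, and 152 to 270 list members higher and 33 to 138 lower. The upper ends of the joint counts came without the first replicate of each group and the lower ends without the third, which leave 2 arrays per group. Of the 353 called genes 217 were still called without the third replicate of each group and 232 without the second. Those lost included Il2, Ccl4, Klf2, Fcgr1, Mir106b and Mir181b-1 without the third, and Txnip, Mgll and Mir181b-1 without the second. Beside the genes said above to lose their call without a single array, Ccna2, Cdk4, Cdkn2b, Eif5, Elane, Fasl, Gas5, Lat and Ywhaz lost theirs without at least 1 (adjusted p from limma of 0.106 for Elane to 0.311 for Gas5), and Atf3, Csf2, Eif4a2, Olfr644, Skp1, Snord15a and Snord22 gained one. Over the alternatives between 31 and 47 snoRNA genes and 16 and 67 microRNA genes were called lower, and 12 to 13 histone genes and 8 to 14 cytokine genes higher. Of the 13 histone and 11 cytokine genes called, 12 and 8 kept the call under every alternative. Arrays have no depth, and values near log2 4 lie close to background, where a fall cannot be measured.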
